A study of Mus musculus with 8 samples.

Results

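RNA encoded by the mitochondrial genome was described in mouse 2-cell embryos after injection of CasRX directed at Polq. The members are all genes of the deposited count table whose symbol starts with mt-, which gave 37 of 55487 genes, namely 13 mRNAs, 2 rRNAs and 22 tRNAs. One-cell embryos labelled wild type were injected 20 h after human chorionic gonadotropin (hCG), and total RNA was extracted after a further 10 h, with 5 embryos pooled per sample. CasRX directed at Polq was given to the 4 Polq knockdown-labelled samples, and CasRX to the 4 control samples. Both groups thus carried CasRX, an RNA-guided nuclease that cuts RNA. Polq encodes DNA polymerase theta, an enzyme of alternative end joining of DNA breaks. The labels name neither the mouse strain nor a control guide, and samples within a group are biological replicates per the series text.

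The mitochondrial genome is a small circular DNA transcribed from both strands into long precursors. In the precursors the tRNAs lie between the rRNAs and mRNAs, and their excision releases the RNAs on either side. The mRNAs encode subunits of complexes I, III, IV and V of oxidative phosphorylation, and the rRNAs form the mitochondrial ribosome. All other proteins of these complexes, and those that copy, transcribe, cut and translate the mitochondrial genome, come from nuclear genes. Mouse oocytes hold a large maternal stock of mitochondria, which the cleaving embryo divides among its cells. Nuclear chromosomes carry copies of parts of the mitochondrial genome, and some of these are nearly identical to it.

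Library totals were 4726160, 8627402, 8100972 and 33650068 counts in knockdown-labelled replicates 1 to 4, and 33311679 to 43748629 counts in the controls. Knockdown-labelled replicates 1, 2 and 3 were therefore shallower than every control, and the edgeR fit was also made with all libraries thinned to the smallest total and with replicate 4 as the only library of its group. Polq was at 16.9, 38.9, 29.2 and 41.1 counts per 1000000 (CPM) in knockdown-labelled replicates 1 to 4, against 34.6, 49.7, 40.1 and 32.7 CPM in control replicates 1 to 4. The groups overlapped, with p = 0.343 in a 2-sided exact permutation test whose smallest possible p is 0.0286, so the libraries are named by their label. All 15 markers of oocytes and 2-cell embryos were above the filter on low counts. The 12 cumulus and granulosa cell markers summed to 2.58 to 16.6 CPM in knockdown-labelled libraries and 6.33 to 22.4 CPM in controls. Of them 8 (Fshr, Inha, Inhba, Foxl2, Has2, Ptx3, Ptgs2 and Col4a1) were at 0 in every library. Tnfaip6 reached 16.2 CPM, Amhr2 7.48 CPM and Cyp19a1 5.23 CPM in the library where each was highest, while Amh had at most 1 count. Among 7 sperm markers Prm2 alone had counts, at up to 7.34 CPM in knockdown-labelled libraries and 7.06 CPM in controls.

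The mitochondrial members took a similar, large share of the sequenced RNA in both groups. Their share of all counts was 20.2%, 27.7%, 20.5% and 24.3% in knockdown-labelled replicates 1 to 4 (mean 23.2% ± 3.56, SD, n = 4). In control replicates 1 to 4 the share was 23.9%, 26.9%, 22% and 17.8% (mean 22.6% ± 3.81, SD, n = 4). The difference of the means was 0.568 percentage points, smaller than either SD, and the ranges overlapped, with the highest share in knockdown-labelled replicate 2 and the lowest in control replicate 4. The sign of the difference depended on single libraries: it was −0.948 points without knockdown-labelled replicate 2, −1.06 points without control replicate 4 and 1.98 points without control replicate 2. Counting error was small beside this spread, since the widest half-width of a 95% Wilson interval was 0.0362 points, which covers counting error only. In pooled embryos, fewer cells, fewer mitochondrial genomes per cell and less RNA from each cannot be told apart.

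The mRNAs made up 11.7%, 20.1%, 12.0% and 14.3% of all counts in knockdown-labelled replicates 1 to 4, and 13.3%, 16%, 14.6% and 11.6% in control replicates 1 to 4. The rRNAs made up 8.49%, 7.6%, 8.42% and 9.99% in the knockdown-labelled libraries and 10.5%, 10.8%, 7.37% and 6.10% in the controls. The tRNAs held little of the library, at 0.0810% ± 0.00888 in knockdown-labelled libraries and 0.0791% ± 0.0133 in controls (SD, n = 4 each). Each class overlapped between the groups. The balance of mRNA and rRNA varied within a group more than between the groups. The mRNAs were 57.6%, 72.3%, 58.6% and 58.6% of mitochondrial counts in knockdown-labelled replicates 1 to 4, against 55.7%, 59.5%, 66.2% and 65.3% in control replicates 1 to 4. Knockdown-labelled replicate 2 stood above the other 3 of its group, and control replicates 3 and 4 above control replicates 1 and 2. The sources used here do not say whether poly(A) RNA was selected or rRNA removed. Of the nuclear RNAs without a poly(A) tail that were examined, 10 of 15 were found in the table and 6 passed the filter. Rn7sk, an RNA that holds a transcription elongation factor inactive, was at 39.8 ± 4.13 CPM in knockdown-labelled libraries and 46.8 ± 16.1 CPM in controls. Rpph1, the RNA of the nuclear ribonuclease P, was at 8.5 ± 1.52 CPM in knockdown-labelled libraries and 10.9 ± 3.32 CPM in controls.

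**Figure D1:**
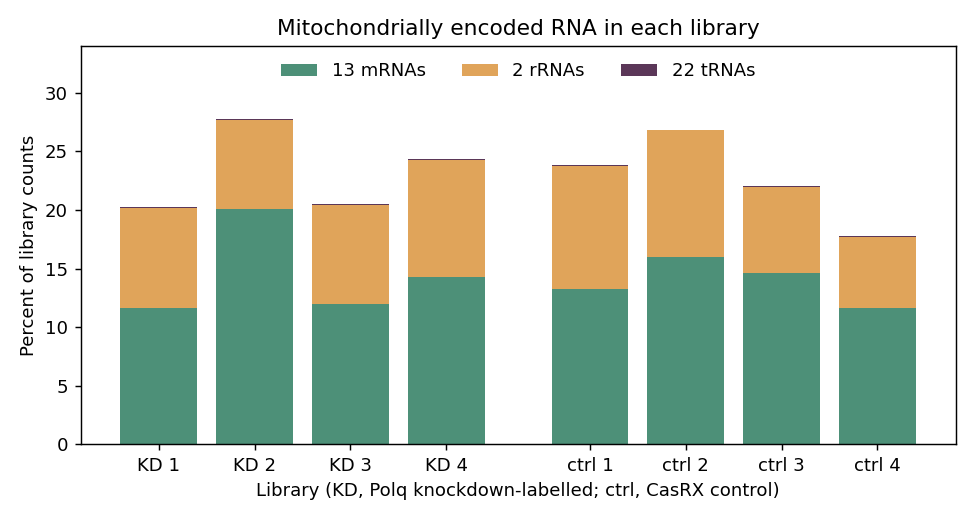
Share of all counts (percent) in each library taken by the 13 mitochondrial mRNAs, 2 rRNAs and 22 tRNAs, stacked, with knockdown-labelled libraries on the left and controls on the right. The total bars run from 20.2% to 27.7% in knockdown-labelled libraries and from 17.8% to 26.9% in controls, and the tRNA layer is at most a thin line at this scale.

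A pair of genes held most of the mitochondrial counts. mt-Cytb, which encodes the cytochrome b of complex III, and mt-Rnr2, the large (16S) ribosomal RNA, together held 59.9% to 65.9% of mitochondrial counts, and they were the 2 most counted genes of the whole table in each of the 8 libraries. Per kilobase of gene, mt-Cytb averaged 69342 CPM over the 8 libraries and mt-Rnr2 42997 CPM. mt-Nd1 followed with 21796 CPM per kilobase, the 12S ribosomal RNA mt-Rnr1 with 20498 and mt-Nd2 with 19833. Further down lay mt-Nd4 with 8266 CPM per kilobase, mt-Co1 with 4287, mt-Nd5 with 2174 and mt-Nd6 with 1860. How much of the RNA of mt-Nd4 and mt-Co1, which share sequence with nuclear copies, these counts hold cannot be told. Of the neighbours in this order, mt-Nd2 and mt-Nd4, and mt-Co1 and mt-Nd5, had ranges over the 8 libraries that did not overlap, while the ranges of all other neighbouring pairs did. Within each library, mt-Cytb was above mt-Rnr2, mt-Rnr2 above mt-Nd1, mt-Nd4 above mt-Co1 and mt-Nd5 above mt-Nd6 per kilobase. The order of mt-Nd1, mt-Rnr1 and mt-Nd2 differed between libraries. The count ratio of mt-Rnr2 to mt-Rnr1 was 3.14 to 3.97 in knockdown-labelled libraries and 3.03 to 3.63 in controls. Both rRNAs lie on one precursor, with the tRNA mt-Tv between them. mt-Nd6, a complex I subunit, is the only mRNA annotated on the minus strand, where its last 14 bases overlap the end of mt-Nd5. Per kilobase, mt-Cytb was at 30.4 to 43.0 times the level of mt-Nd6 in knockdown-labelled libraries and 33.5 to 43.6 times in controls. The sources used here do not give the strand setting of the counting, and without strand the reads of the overlap cannot be assigned to one of the pair.

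Of the 13 mRNAs, 6 were near 0 in all libraries. They are the consecutive genes mt-Co2, mt-Atp8, mt-Atp6, mt-Co3, mt-Nd3 and mt-Nd4l, which lie between mt-Co1 and mt-Nd4 and are transcribed on the same strand as both. mt-Co2, the copper-binding subunit of complex IV, had 3, 14, 11 and 28 counts in knockdown-labelled replicates 1 to 4, against 24, 23, 33 and 28 counts in control replicates 1 to 4. mt-Atp6, the proton channel subunit of complex V, had 9, 39, 30 and 122 counts in the knockdown-labelled libraries and 96, 136, 149 and 135 counts in the controls. These counts followed the depth of the libraries, and after scaling for it the groups overlapped for both genes. mt-Atp8, a small subunit of complex V, had 1, 4, 4 and 22 counts in knockdown-labelled libraries against 9, 15, 23 and 16 in controls. mt-Co3, another core subunit of complex IV, had 1, 12, 7 and 18 counts in knockdown-labelled libraries against 17, 22, 24 and 19 in controls. For both, knockdown-labelled replicate 1, the shallowest library, had a single count. Of the complex I subunits, mt-Nd3 had 2 to 9 counts in knockdown-labelled libraries and 10 to 21 in controls, and mt-Nd4l, the least counted of the 6, had 0, 1, 0 and 0 counts in knockdown-labelled libraries and 1, 1, 2 and 1 in controls. Per kilobase the 6 genes averaged 0.106 (mt-Nd4l) to 5.06 CPM (mt-Atp6), against 4287 CPM for mt-Co1 upstream and 8266 CPM for mt-Nd4 downstream. Summed, the 6 genes had 16, 74, 60 and 199 counts in knockdown-labelled replicates 1 to 4 and 163 to 252 counts in the controls, while the other 7 mRNAs held at least 99.994% of mitochondrial mRNA counts in every library.

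The same stretch of the mitochondrial genome has a nuclear copy on chromosome 1. In GRCm38 with the GENCODE M21 annotation, 7 unprocessed pseudogenes lie on the minus strand between 24611535 and 24616197 (4663 bases) in the order of the mitochondrial genes from mt-Co1 to mt-Nd4. Over their annotated lengths, Gm28661 differed from mt-Co2 at 0 of 681 bases, Gm10925 from mt-Atp6 at 0 of 678, Gm28437 from mt-Co3 at 0 of 783 and Gm10222 from mt-Nd4l at 0 of 294. Gm28439 matched the first 876 of the 1378 bases of mt-Nd4 with 0 differences. Gm28438 differed from mt-Nd3 at 1 of 345 bases, T3C, and Gm29216 from the last 492 bases of mt-Co1 at 6 positions, T1056A, C1057T, A1059G, A1060G, C1062A and A1066T, where the mitochondrial base comes first and positions count from the 5′ end of the mitochondrial gene. The first bases of 3 of these pairs are printed from the GENCODE M21 transcripts to show how little sequence separates a mitochondrial gene from its copy. They are mt-Co2 (chrM:7013-7132, plus strand) and Gm28661 (chr1:24615446-24615565, minus strand), mt-Nd3 (chrM:9459-9518, plus) and Gm28438 (chr1:24613060-24613119, minus), and the stretch of mt-Co1 where the copy starts (chrM:6381-6440, plus) with Gm29216 (chr1:24616138-24616197, minus). Capitals mark the bases that differ.
mt-Co2: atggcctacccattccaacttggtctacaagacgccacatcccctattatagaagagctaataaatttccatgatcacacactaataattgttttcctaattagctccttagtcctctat
Gm28661: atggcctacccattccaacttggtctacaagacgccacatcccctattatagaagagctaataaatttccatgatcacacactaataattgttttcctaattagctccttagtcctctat
mt-Nd3: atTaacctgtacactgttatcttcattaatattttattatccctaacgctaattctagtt
Gm28438: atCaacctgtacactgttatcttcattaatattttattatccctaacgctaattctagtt
mt-Co1: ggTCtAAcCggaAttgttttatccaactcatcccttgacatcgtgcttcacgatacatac
Gm29216: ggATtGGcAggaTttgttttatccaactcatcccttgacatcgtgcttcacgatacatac

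The 5 near-zero mRNAs other than mt-Atp8 had almost no sequence of their own among annotated transcripts. Of all stretches of 50 bases, 100% in mt-Co2, 99.9% in mt-Co3, 99.5% in mt-Atp6, 98.8% in mt-Nd4l and 98.0% in mt-Nd3 also occurred in an annotated nuclear transcript. The share was 62.2% in mt-Nd4 and 51.1% in mt-Co1, which the chromosome 1 copy covers in part, 8.19% in mt-Nd2 and 7.61% in mt-Nd5. Pseudogenes on chromosome 2 added to the sharing. Of the mt-Co1 stretches, 28.7% occurred in Gm29216 of chromosome 1 and 27.5% in Gm13340 of chromosome 2. Gm13339 of chromosome 2 held the 8.19% of mt-Nd2, and Gm13341 of chromosome 2 held 35.3% of the mt-Co2 stretches. The share was 1.04% in mt-Rnr2 and 0% in mt-Nd1, mt-Nd6, mt-Cytb and mt-Rnr1. The mRNAs and rRNAs above 1000 CPM per kilobase were thus those with a large part of unshared sequence. mt-Atp8 stands apart from this order, with 0% shared and 2.13 CPM per kilobase. Its place in the chromosome 1 block falls between Gm10925 and Gm28661, where no gene is annotated, and the genome sequence there was not used here. The final 43 bases of mt-Atp8 are also the first 43 of mt-Atp6, printed here because they belong to both genes, with the start codon of mt-Atp6 in capitals (chrM:7927-7969, plus strand).
mt-Atp8: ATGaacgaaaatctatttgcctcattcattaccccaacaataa

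The annotated nuclear copies were near 0 as well. The 7 copies of the chromosome 1 block summed to 57, 190, 142 and 458 counts in knockdown-labelled replicates 1 to 4 and to 365, 381, 496 and 482 counts in control replicates 1 to 4, or 0.00681% to 0.0146% of the mitochondrial mRNA counts. Not in this sum are the chromosome 2 pseudogenes, with 10 to 86 counts per library for Gm13339, 11 to 59 for Gm13340 and 12 to 119 for Gm13341. Gm10925, the copy of mt-Atp6, was the most counted, with 40, 126, 104 and 338 counts in knockdown-labelled libraries and 276, 262, 358 and 359 counts in controls. Gm28661, the copy of mt-Co2, was at 1.98, 4.25, 2.54 and 2.32 CPM in knockdown-labelled libraries, against 1.47, 1.92, 1.69 and 1.75 CPM in controls. The groups did not overlap for Gm28661, as for 2.98% of all genes tested, and the edgeR log2 fold change was 0.70 (SE 1.02, adjusted p = 1.0). The sources used here do not say how reads that match both a mitochondrial gene and its copy were treated, and its part in the low counts was not tested. How much of the RNA of these 5 genes, or of the shared parts of mt-Co1 and mt-Nd4, the counts hold cannot be told from the table. Per kilobase of read starts at which a stretch of 75 bases is unshared, mt-Nd4 came to 22690 CPM, close to 23623 for mt-Nd1 and 22648 for mt-Nd2, while mt-Co1 came to 7483 and mt-Cytb to 74138. The near-zero genes stayed below these also on this scale, at 1149 for mt-Atp6, 654 for mt-Co3, 305 for mt-Co2, 77.1 for mt-Nd3, 10.5 for mt-Nd4l and 3.35 for mt-Atp8, where all but mt-Atp8 have at most 6 unshared starts. This scale assumes that only unshared reads were counted, which was not tested. It also depends on the stretch length, and the read length is not known. With stretches of 50 and 100 bases mt-Co1 came to 9060 and 6623, while mt-Nd4 stayed at 22690. At 50 bases mt-Co2 has no unshared start.

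**Figure D2:**
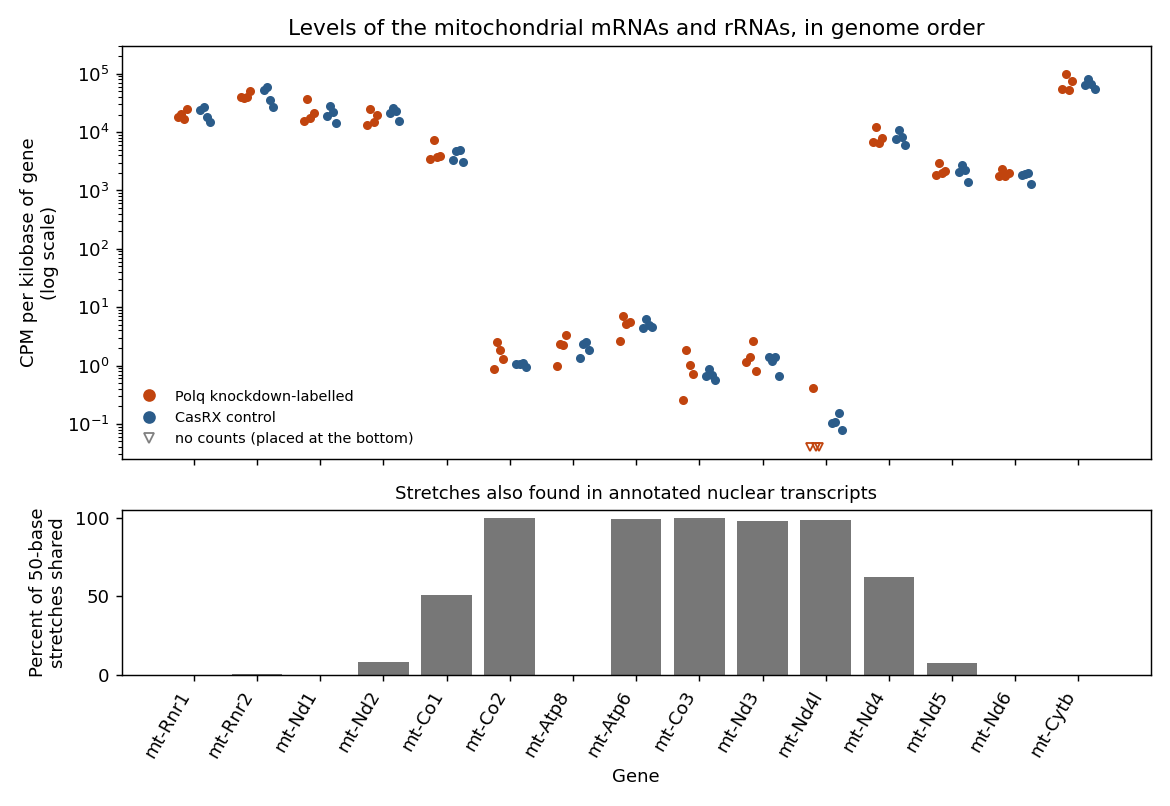
Upper panel: level of each mitochondrial mRNA and rRNA in CPM per kilobase of gene (log axis) in genome order, 1 point per library, knockdown-labelled left of control, with open triangles for libraries without a count. Lower panel: percent of 50-base stretches of the gene that also occur in annotated nuclear transcripts. The 6 genes from mt-Co2 to mt-Nd4l average 0.106 to 5.06 CPM per kilobase and 5 of them share 98.0% to 100% of their stretches.

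No mitochondrial member passed the test between the groups. Of the 37 members 27 passed the filter on low counts (12 mRNAs, both rRNAs and 13 tRNAs), and the edgeR quasi-likelihood test called 0 of 27, where it called 0 of all 13146 genes tested (0%). DESeq2 also called 0 of the 27 members, beside 0.152% of all genes. At an unadjusted p under 0.05 edgeR gave 0 of 27 members, beside 2.81% of all genes. In CPM, 0 of 27 members had groups that did not overlap, beside 2.98% of all genes. The log2 fold change was above 0 in 20 of 27 members and below 0 in 7, beside 46.6% of all genes above 0, and the median was 0.12 beside −0.047 over all genes tested. Leaving out knockdown-labelled replicate 2 gave a member median of −0.0062, and leaving out control replicate 4 gave 0.0020, and these are the libraries with the highest and the lowest mitochondrial share.

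Of the complex I mRNAs, mt-Nd1 was at 14643, 35517, 16792 and 20090 CPM in knockdown-labelled replicates 1 to 4, against 18387, 26723, 21032 and 13688 CPM in control replicates 1 to 4. mt-Nd2 was at 13682, 25873, 15549 and 20743 CPM in knockdown-labelled libraries and 22393, 26799, 23640 and 16015 CPM in controls. In both genes knockdown-labelled replicate 2 was the highest of its group, and control replicate 4 the lowest of the controls. The log2 fold change was 0.12 (SE 0.29) for mt-Nd1 and −0.23 (SE 0.22, 95% interval −0.72 to 0.26) for mt-Nd2, which had the smallest unadjusted p of the members, 0.322 in edgeR (adjusted p = 1.0). mt-Nd4, at 11520 ± 3882 CPM in knockdown-labelled libraries and 11261 ± 2685 CPM in controls, had a log2 fold change of 0.033 (SE 0.24). mt-Nd5 was at 4103 ± 909.8 CPM in knockdown-labelled libraries and 3826 ± 1019 CPM in controls (0.10, SE 0.22). mt-Nd6 was at 917, 1200, 908 and 1016 CPM in knockdown-labelled libraries against 971, 987, 1046 and 679 CPM in controls, with a log2 fold change of 0.13 (SE 0.17). Without knockdown-labelled replicate 2 the log2 fold changes of mt-Nd1, mt-Nd4 and mt-Nd5 were below 0, at −0.21, −0.22 and −0.053.

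mt-Cytb, the mitochondrial mRNA of complex III, was at 62024, 113778, 60919 and 87725 CPM in knockdown-labelled replicates 1 to 4, against 74133, 94835, 77281 and 63924 CPM in control replicates 1 to 4. Its log2 fold change was 0.065 (SE 0.21), with a 95% interval of the ratio from 0.757 to 1.44, and it was −0.13 without knockdown-labelled replicate 2. mt-Co1, the catalytic subunit of complex IV, was at 5352, 11194, 5843 and 5958 CPM in knockdown-labelled libraries, against 5161, 7208, 7557 and 4709 CPM in controls. Knockdown-labelled replicate 2 was far above the other 3 of its group, and the log2 fold change of 0.20 (SE 0.26) was −0.098 without it. For the abundant genes the 95% intervals were narrow: the lowest bound among the 7 abundant mRNAs and 2 rRNAs was 0.609-fold, for mt-Nd2, and the highest 1.71-fold, for mt-Co1. For the near-zero mRNAs the intervals were wide. mt-Co2 had a log2 fold change of 0.63 (SE 0.95), mt-Co3 of 0.46 (SE 0.95), mt-Nd3 of 0.36 (SE 0.87), mt-Atp8 of 0.18 (SE 0.85) and mt-Atp6 of 0.0071 (SE 0.90), and changes of up to 4.04-fold (mt-Atp6) to 6.68-fold (mt-Co2) lay inside the intervals.

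**Figure D3:**
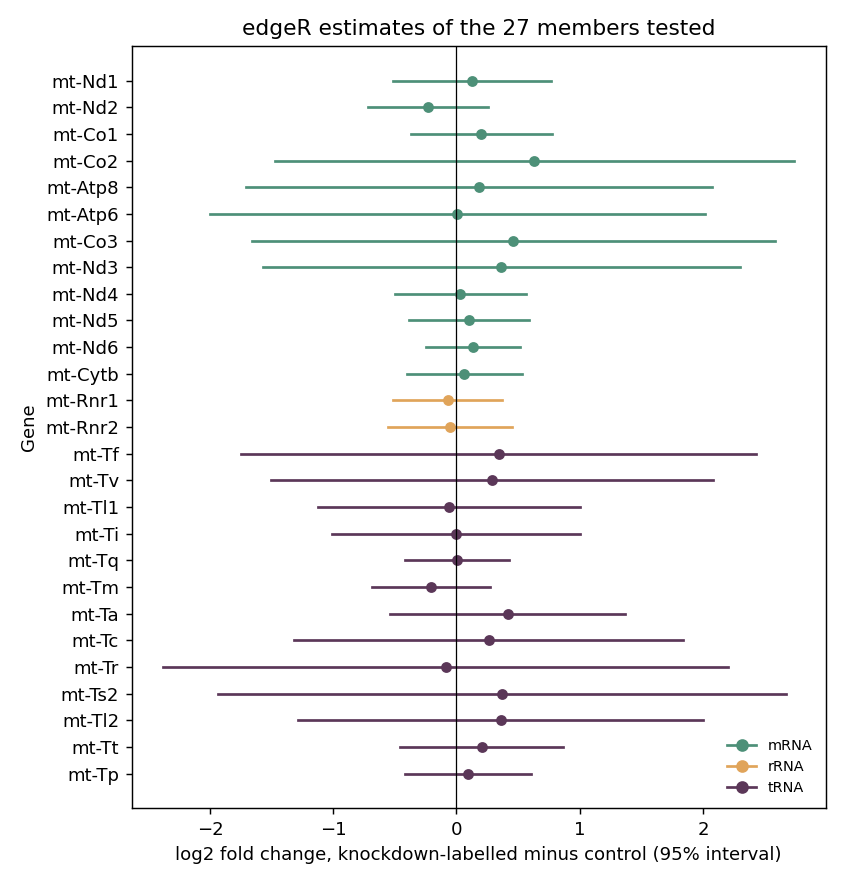
edgeR log2 fold change (knockdown-labelled minus control) of the 27 members tested, with its 95% interval, coloured by class. Every interval holds 0, and those of the near-zero mRNAs and of most tRNAs reach beyond 1 in both directions.

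The ribosomal RNA mt-Rnr2 was at 62262, 60428, 62979 and 81389 CPM in knockdown-labelled replicates 1 to 4, against 83716, 93353, 56604 and 43439 CPM in control replicates 1 to 4. mt-Rnr1 was at 17295, 19259, 15876 and 23918 CPM in knockdown-labelled libraries and 23048, 25752, 17139 and 14314 CPM in controls. In both genes control replicates 1 and 2 were above knockdown-labelled replicates 1 to 3, and control replicate 4 was below every knockdown-labelled library. The log2 fold changes were −0.053 (SE 0.22) for mt-Rnr2 and −0.072 (SE 0.20) for mt-Rnr1. Without control replicate 2 they were 0.13 and 0.076, so the direction rested on single libraries.

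The make-up of the mRNA pool was described as each mRNA's percent of mitochondrial mRNA counts. mt-Cytb was 55.9% ± 2.07 of mitochondrial mRNA counts in knockdown-labelled libraries and 54.9% ± 2.34 in controls (SD, n = 4 each). mt-Nd1 held 14.6% ± 1.67 in knockdown-labelled libraries and 13.9% ± 1.15 in controls, and mt-Nd4 7.92% ± 0.507 in knockdown-labelled libraries and 7.89% ± 0.350 in controls. mt-Co1 held 4.85% ± 0.616 in knockdown-labelled libraries and 4.34% ± 0.587 in controls. The group ranges of each of these 4 mRNAs overlapped. mt-Nd2 was the exception among the 13 mRNAs. It held 12.5%, 12.3%, 13.8% and 13.8% in knockdown-labelled replicates 1 to 4, against 16.5%, 15.2%, 16.2% and 14.6% in control replicates 1 to 4, so that every knockdown-labelled library lay below every control. The means were 13.1% ± 0.809 in knockdown-labelled libraries and 15.6% ± 0.896 in controls. Of all genes tested, 1.92% had groups that did not overlap when set against the same mitochondrial mRNA counts, beside 1 of 13 mRNAs here, and no test was made of a gene picked out in this way. Nearly all genes tested are nuclear and not part of this total, so these shares are not of the same kind. With mt-Cytb left out of the total, a setting chosen after seeing the data, the groups overlapped, with 29.0%, 26.8%, 30.2% and 33.1% in knockdown-labelled libraries and 36.6%, 32.9%, 34.3% and 34.9% in controls. By complex, the complex I mRNAs held 37.7% to 40.6% of mitochondrial mRNA counts in knockdown-labelled libraries and 37.5% to 42.1% in controls. All these percents are of counts, and how much RNA of the mRNAs with shared sequence the counts hold cannot be told.

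**Figure D4:**
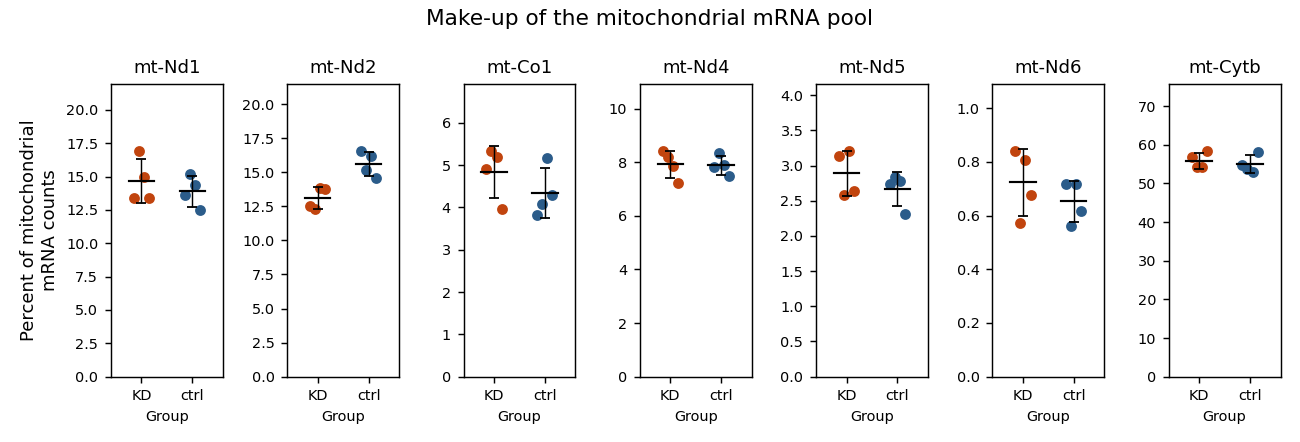
Percent of mitochondrial mRNA counts held by each of the 7 abundant mRNAs, 1 point per library, with bars for mean ± SD (n = 4) and knockdown-labelled (KD) left of control (ctrl). Only in the mt-Nd2 panel do the groups not overlap, at 12.3% to 13.8% in knockdown-labelled libraries and 14.6% to 16.5% in controls.

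The tRNAs were counted very unevenly. mt-Tq, the glutamine tRNA, held 66.7% to 72.4% of mitochondrial tRNA counts, the methionine tRNA mt-Tm 11.6% to 16.1%, the proline tRNA mt-Tp 6.61% to 8.22% and the threonine tRNA mt-Tt 2.20% to 3.70%. Of the 22 tRNAs, 13 passed the filter and the other 9 had no count in any library. The 9 are mt-Tw, mt-Tn, mt-Ty, mt-Ts1, mt-Td, mt-Tk, mt-Tg, mt-Th and mt-Te. A count of 0 allows up to 3 counts, or 0.0686 to 0.0945 CPM in the controls and 0.0940 to 0.595 CPM in the knockdown-labelled libraries. Strand did not separate counted from uncounted tRNAs, since 4 of the 8 tRNAs annotated on the minus strand and 9 of the 14 on the plus strand had counts. No stretch of 50 bases of any tRNA occurred in an annotated nuclear transcript. Nuclear sequence outside annotated transcripts was not searched, so whether shared sequence separates the counted tRNAs was not tested. The counted mt-Tq and mt-Tm lie side by side between mt-Nd1 and mt-Nd2, and mt-Tt and mt-Tp follow mt-Cytb. The tRNA genes span 59 to 75 bases, so that reads of tRNAs and of the precursors that hold them cannot be told apart at gene level. The sequences of the most counted pair, mt-Tq (chrM:3772-3842, minus strand) and mt-Tm (chrM:3845-3913, plus strand), are printed with that of the asparagine tRNA mt-Tn (chrM:5089-5159, minus strand), which has the length and strand of mt-Tq and no count. No base is in capitals.
mt-Tq: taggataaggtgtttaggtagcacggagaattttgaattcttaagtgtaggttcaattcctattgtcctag
mt-Tm: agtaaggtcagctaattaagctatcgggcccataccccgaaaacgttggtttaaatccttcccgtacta
mt-Tn: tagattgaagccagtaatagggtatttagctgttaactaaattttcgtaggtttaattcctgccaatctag

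mt-Tq was at 483, 706, 523 and 543 CPM in knockdown-labelled replicates 1 to 4, against 728, 565, 494 and 462 CPM in control replicates 1 to 4, with a log2 fold change of 0.0039 (SE 0.19). mt-Tm was at 99.9 ± 18.4 CPM in knockdown-labelled libraries and 115 ± 19.8 CPM in controls (−0.21, SE 0.22). mt-Tp was at 59.1 ± 6.87 CPM in knockdown-labelled libraries and 55.4 ± 9.48 CPM in controls (0.093, SE 0.23). The groups overlapped for all 3, and likewise for the other 10 counted tRNAs. mt-Tt was at 24.4 ± 1.66 CPM in knockdown-labelled libraries and 21.2 ± 2.40 CPM in controls (0.21, SE 0.30). The alanine tRNA mt-Ta was at 15.8 ± 4.05 CPM in knockdown-labelled libraries and 11.8 ± 3.42 CPM in controls. The remaining 8, mt-Tf, mt-Tv, mt-Tl1, mt-Ti, mt-Tc, mt-Tr, mt-Ts2 and mt-Tl2, averaged 1.81 (mt-Tr) to 10.4 CPM (mt-Ti) in knockdown-labelled libraries and 1.70 (mt-Ts2) to 10.4 CPM (mt-Ti) in controls.

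**Figure D5:**
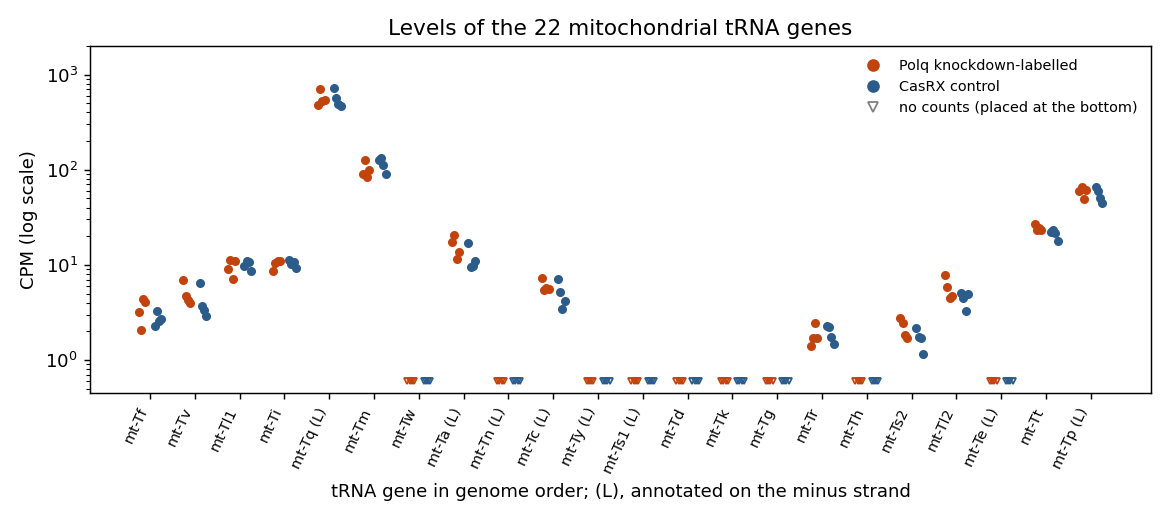
Level of each of the 22 mitochondrial tRNA genes in CPM (log axis) in genome order, 1 point per library, knockdown-labelled left of control; (L) marks genes annotated on the minus strand and open triangles mark libraries without a count. mt-Tq lies at 462 to 728 CPM over all libraries and 9 tRNAs have no count in any.

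The nuclear genes that serve the mitochondrial genome were examined in lists, in none of which a gene passed the edgeR test. Of 45 genes for mitochondrial transcription and RNA maturation, 40 passed the filter, with 20 log2 fold changes above 0 and 20 below (median −0.021). That median was above 0 without knockdown-labelled replicate 1 (0.042), control replicate 1 (0.037) or control replicate 4 (0.17). Mterf2, a mitochondrial DNA-binding protein of the transcription termination factor family, had 0 counts in all 4 knockdown-labelled libraries, against 24, 20, 224 and 268 counts in control replicates 1 to 4. A level of 0.63 CPM, as in control replicate 2, would be near the limit of 0.595 CPM that a count of 0 allows in knockdown-labelled replicate 1. It would be above the limits in knockdown-labelled replicates 2 to 4, which were 0.364, 0.347 and 0.0940 CPM. Lrpprc, which stabilises mitochondrial mRNAs, had 0, 0, 9 and 2 counts in knockdown-labelled libraries and 5, 396, 475 and 154 counts in controls. Each overlaps a gene annotated on the other strand, Tmem263 for Mterf2 and AC165360.1 for Lrpprc. Their unadjusted edgeR p-values were 0.00465 and 0.0322 (adjusted p = 1.0 for both). Besides these, Tefm, the mitochondrial transcription elongation factor, had an unadjusted edgeR p of 0.0495 (53.7, 30.6, 110.5 and 47.4 CPM in knockdown-labelled libraries, 32.3, 10.6, 39.5 and 31.7 CPM in controls). The groups did not overlap in 3 of the 40, namely Mterf2, the tRNA methyltransferase Nsun3 and the pseudouridine synthase Rpusd4, beside 2.98% of all genes. Tefm, Nsun3 and Rpusd4 were named after their values were seen. Angel2, a member of the CCR4 nuclease family and the most abundant of the list, was at 141 ± 14.6 CPM in knockdown-labelled libraries and 174 ± 27 CPM in controls.

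Of 18 genes that maintain mitochondrial DNA, 17 passed the filter, with 6 log2 fold changes above 0 and 11 below (median −0.30). The median ran from −0.30 to −0.21 with 1 library left out, and it was −0.78 in limma-voom. Mgme1, a nuclease that processes ends of mitochondrial DNA during replication, was at 39.3, 8.5, 9.48 and 14 CPM in knockdown-labelled replicates 1 to 4, against 36.1, 55.3, 48.3 and 40.4 CPM in control replicates 1 to 4. Knockdown-labelled replicate 1 lay within the control range and the other 3 below it. The log2 fold change was −1.35 (SE 0.50), with an edgeR adjusted p of 1.0 and an unadjusted p of 0.0227. Mgme1 overlaps Snx5 on the other strand. Top3a, a topoisomerase that separates replicated mitochondrial genomes, was at 17.6 ± 9.58 CPM in knockdown-labelled libraries and 7.57 ± 3.80 CPM in controls. Ssbp1, the mitochondrial single-stranded DNA-binding protein and the most abundant of the list, was at 261 ± 68.6 CPM in knockdown-labelled libraries and 219 ± 109 CPM in controls. Of 33 genes for mitochondrial translation and tRNA charging, 22 passed the filter, with 14 log2 fold changes above 0 and 8 below (median 0.27). Leaving out knockdown-labelled replicate 4 gave a median of 0.026, and leaving out control replicate 1 gave 0.10. Rars2, the mitochondrial arginyl-tRNA synthetase, was at 6.31 ± 3.87 CPM in knockdown-labelled libraries and 1.29 ± 1.49 CPM in controls. The elongation factor Gfm1 was at 11.1 ± 7.38 CPM in knockdown-labelled libraries and 1.84 ± 2.31 CPM in controls, and overlaps Lxn on the other strand. Fars2, the mitochondrial phenylalanyl-tRNA synthetase, was at 192 ± 30.9 CPM in knockdown-labelled libraries and 225 ± 41.9 CPM in controls.

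The nuclear subunits of the same complexes were split evenly in direction, with 35 log2 fold changes above 0 and 35 below among the 70 of 71 genes that passed the filter (median −0.0019). Complex I had 20 above 0 and 16 below (median 0.069), and complex III 4 above and 5 below (median −0.13). Complex IV had 3 above and 8 below (median −0.036), and complex V 8 above and 6 below (median 0.015). Each of these medians took the other sign when 1 library was left out: complex I was at −0.080 without knockdown-labelled replicate 4 and, with control replicate 3 left out, at −0.018, and complex III at 0.26, 0.075 and 0.056 without control replicate 1 and knockdown-labelled replicates 1 and 2. Complex IV was at 0.024 without knockdown-labelled replicate 1 and, with control replicate 1 left out, at 0.021. Complex V was at −0.062, −0.012 and −0.054 without knockdown-labelled replicate 4 and control replicates 2 and 3. At an unadjusted edgeR p under 0.05 stood 2 of the 70, beside 2.81% of all genes. They were Atp5c1, the gamma subunit of ATP synthase, at 101, 128, 90.4 and 120.0 CPM in knockdown-labelled libraries and 59.2, 56.8, 64.9 and 95.4 CPM in controls (log2 fold change 0.67, SE 0.24, adjusted p = 1.0), and Cox4i1 of complex IV. Cox4i1 was at 381 ± 72.2 CPM in knockdown-labelled libraries and 262 ± 73 CPM in controls, and overlaps Emc8 on the other strand. The groups overlapped for both genes, as for each of the 70 subunits. The most abundant subunits had log2 fold changes of −0.12 for Cox7a2, 0.018 for Ndufa2, 0.074 for Uqcr10 and 0.31 for Atp5g1. Cox7a2 of complex IV was at 1031 ± 52.0 CPM in knockdown-labelled libraries and 1121 ± 174 CPM in controls, and Ndufa2 of complex I at 678 ± 84.4 CPM in knockdown-labelled libraries and 669.6 ± 87.6 CPM in controls. Uqcr10 of complex III was at 373 ± 186 CPM in knockdown-labelled libraries and 355 ± 92.2 CPM in controls, and Atp5g1, which encodes the membrane ring subunit of complex V, at 666 ± 119 CPM in knockdown-labelled libraries and 539 ± 119 CPM in controls. Ndufa2 overlaps Tmco6 on the other strand. The members with the next smallest p lay in both directions. In complex I, Ndufa6 was at 41.1 ± 13.9 CPM in knockdown-labelled libraries and 66.1 ± 21.4 CPM in controls, and Ndufs6 at 20.2 ± 9.75 CPM in knockdown-labelled libraries and 10.4 ± 3.31 CPM in controls. In complex III, Uqcr11 was at 44.7 ± 8.92 CPM in knockdown-labelled libraries and 65.5 ± 19.0 CPM in controls, and Uqcrh at 137 ± 38.4 CPM in knockdown-labelled libraries and 182 ± 46.1 CPM in controls. Cox8a of complex IV was at 632 ± 83.9 CPM in knockdown-labelled libraries and 745 ± 63.1 CPM in controls. Of these 5, Ndufs6 (overlapping Mrpl36) and Uqcrh (overlapping Gm12854) share their position with a gene on the other strand.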

How the data were processed

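TRIzol extraction of total RNA and the NEBNext Ultra RNA library kit are named in the labels' protocols. The authors deposited 1 table of expected counts, not normalised, with a column for each of the 8 libraries. Per the submitters' processing notes, Trim Galore 0.6.10, STAR 2.7.3a, RSEM 1.2.28 and the build GRCm38 (mm10) were used. RSEM can divide reads among near-identical genes by estimation. The sources used here do not give the annotation release, strand setting or read length.

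Expected counts were rounded, which altered 4.22% of values. The groups were compared with edgeR 4.0.16 in R 4.3.3 (robust quasi-likelihood test, trimmed-mean scaling, filterByExpr with a minimum count of 10 and a minimum total of 15, Benjamini-Hochberg adjustment over 13146 genes, threshold 0.05). The common biological coefficient of variation was 0.988. CPM values are scaled in the same way, and a positive log2 fold change means higher in knockdown-labelled libraries. Shares use unscaled counts. Without molecular identifiers in the labels, counts are reads and not molecules. Shared stretches and sequences come from the GENCODE M21 transcripts of GRCm38, in which all 37 members were found. A stretch counts as shared when an annotated transcript outside the mitochondrial genome, or its reverse complement, holds the same letters.

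The members, lists, alternatives and rule for named genes were chosen with earlier results of these data known. Named were all mRNAs and rRNAs, tRNAs with at least 10 counts in 4 libraries, the 2 members of each nuclear list with the smallest p, and its most abundant member. Alternatives were other scalings and filters, DESeq2 1.42.0, limma-voom (limma 3.58.1), a block for the replicate number and leaving out each library.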

Additional observations from a re-analysis of the deposited data

Results flagged for a closer look

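Dixon's criterion was applied to 108 sets of 4 libraries, each set being 1 quantity in 1 group. It takes the gap to the nearest library as a share of the group's range, against the 95% critical value. In 6 of the 108 sets a library stood apart, where chance gives about 1 in 20. The sets are not independent, as the mRNA and rRNA percents of mitochondrial counts are near complements. In knockdown-labelled replicate 2 the mRNAs were 72.3% of mitochondrial counts, against 57.6% to 58.6% in the other 3 of its group, and the rRNAs were 27.4%, against 41.1% to 42%. In the same library mt-Co1 was at 11194 CPM, against 5352 to 5958 CPM in the other 3. mt-Rnr2 was at 81389 CPM in knockdown-labelled replicate 4, against 60428 to 62979 CPM. The cysteine tRNA mt-Tc was at 7.34 CPM in knockdown-labelled replicate 1, against 5.47 to 5.66 CPM. In control replicate 4 the complex I mRNAs were 37.5% of mitochondrial mRNA counts, against 41.4% to 42.1% in the other controls.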

How the results depend on the processing

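No member was called in any of the alternatives, and edgeR and limma-voom called no gene in any of theirs. DESeq2 called 20 of 13146 genes (0.152%), none of them mitochondrial. At an unadjusted p under 0.05 stood 369 genes in edgeR, 558 in DESeq2 and 817 in limma-voom, and no member in any of them. The smallest adjusted p of a member over the alternatives was 0.608, without a filter on low counts.

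Directions of many of the small differences were not stable, and the cause was not tested. In limma-voom the log2 fold change was 0.091 for mt-Rnr1 and 0.082 for mt-Rnr2. With knockdown-labelled replicate 4 as the only library of its group, a setting chosen after seeing the data in which it is assumed to vary like the controls and in which the median of all genes was −0.36, it was 0.26 for mt-Rnr1, 0.24 for mt-Rnr2, −0.042 for mt-Tq, −0.039 for mt-Co1, −0.50 for mt-Nd3 and −0.039 for mt-Nd4. Without a filter (median of all genes −0.16) it was −0.036 for mt-Tq, −0.029 for mt-Atp6 and −0.0058 for mt-Nd4. Thinned to the smallest total, also chosen after seeing the data, it was −0.26 for mt-Atp6. With each library left out in turn it ran from −0.20 to 0.076 for mt-Rnr1, −0.22 to 0.13 for mt-Rnr2, −0.21 to 0.30 for mt-Nd1, −0.11 to 0.16 for mt-Tq, −0.098 to 0.32 for mt-Co1, −0.095 to 0.41 for mt-Atp8, −0.17 to 0.22 for mt-Atp6, −0.047 to 0.77 for mt-Co3, −0.065 to 0.58 for mt-Nd3, −0.22 to 0.19 for mt-Nd4, −0.054 to 0.26 for mt-Nd5 and −0.13 to 0.18 for mt-Cytb. It stayed below 0 for mt-Nd2 (−0.40 to −0.0999) and mt-Tm (−0.33 to −0.12). It stayed above 0 for mt-Nd6 (0.011 to 0.20), mt-Co2 (0.36 to 0.83), mt-Tt (0.13 to 0.26) and mt-Tp (0.002 to 0.20). The mt-Nd2 share of mRNA counts differed by −2.86 to −2.21 percentage points. With mt-Cytb left out of the total it differed by −4.91 points. That total is smaller, so these points are on another scale, on which the groups overlapped.

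The labels number the replicates 1 to 4 in both groups. The deviations of same-numbered libraries correlated at −0.075, 0.0049, −0.0081 and 0.0085, which gave no sign of pairing by number. A weak pairing cannot be seen in these values. With a replicate block edgeR called 0 genes, and the log2 fold change of mt-Atp6 was −0.060. Precision was lowest for the near-zero mRNAs and the rarer tRNAs, and whether depth or spread limits it was not tested.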
